A study of Rattus norvegicus with 8 samples.

Results

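Glycolysis turns glucose into pyruvate and lactate in the cytosol, and nearly all of its enzymes, the glucose transporters before it and the lactate exporters after it can be induced by hypoxia-inducible factor (HIF). HIF pairs an oxygen-sensitive alpha subunit, such as the one encoded by Hif1a, with ARNT. With oxygen present, prolyl hydroxylases (Egln1, Egln3) mark the alpha subunit for destruction; with little oxygen it persists and binds DNA at a short core motif near its targets. Those targets include glycolytic enzymes and also genes of other functions, among them Bnip3, Vegfa, Ndrg1 and Car9. In cultured thyroid cells thyrotropin (TSH) raises glucose uptake, so receptor signalling and this gene set meet in the cell studied here.

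The genes described are 32 named members of this pathway, each represented by its brightest probe set over all arrays. Of these, 31 had a probe set of their own; the only probe set of Pkm was shared with a pseudogene and was not named. Tests were run on 27 members among 10048 genes. Aldoc, Slc16a3 and Adm were too dim to be tested, and Gapdh was present only on control probe sets, which stayed out of the fit. The members were chosen with earlier results of these data known, so their counts beside shares of all genes are description only.

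Expression was measured in FRTL-5, a TSH-dependent rat thyroid follicular line (sub-clone SB5), on single-colour Affymetrix arrays. The cells stably expressed a human TSH receptor, either wild type or carrying the activating substitution L629F, beside the rat receptor gene they still hold. Both lines were grown with 5 mU/ml bovine TSH, and 1 mM sodium iodide was set against 1 mM sodium chloride as the control salt. Each group had 2 arrays. The labels give 1 line per receptor, so receptor and line cannot be told apart, and they give no treatment time. Nothing in them says that the 2 replicates of a group came from different cultures, so a p-value here reflects array-to-array spread that may be technical.

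Of 13 thyrocyte markers, 11 were on the array and 9 were above the brightness filter, including Tg, Pax8, Nkx2-1 and Slc5a5; Slc26a4 and Iyd were not. Of the markers on the array, 3 of 9 for leucocytes, 1 of 5 for C cells, 2 of 7 for fibroblasts and 2 of 6 for endothelium passed the filter. No marker was listed at 0. The summed leucocyte signal ranged from 486 to 695 in wild type iodide cells and from 489 to 534 in their controls; it ranged from 598 to 642 and from 556 to 656 in L629F cells. In L629F cells 2 other sums did not overlap between salts, that of endothelial markers (475 to 598 in chloride and 368 to 395 in iodide) and that of C cell markers (287 to 309 and 201 to 268); in wild type cells they overlapped or, for C cells, lay between 208 and 224. Among the thyrocyte markers the iodide transporter gene Slc5a5 fell with iodide (-1.02 ± 0.21 log2, limma adjusted p = 0.027) and Hhex rose (0.38 ± 0.09, adjusted p = 0.0453), while Duox2 was higher in the L629F line (0.50 ± 0.11, adjusted p = 0.0257). Of the 8 fits that each left out 1 array, Slc5a5 passed in 3, Hhex in 1 and Duox2 in 1, and Hhex was at 0.19 with quantile scaling (adjusted p = 0.159). The 25th percentile of signal was 29.3 to 31.6 on wild type and 40.8 to 43.1 on L629F arrays. The GAPDH 3′ to 5′ ratio, a sign of RNA quality, was 2.32 ± 0.716 on iodide and 1.62 ± 0.397 on chloride arrays (SD, n = 4; exact two-sided permutation p = 0.171). For beta-actin, this measure spanned 2.23 (wild type chloride replicate 1) to 9.15 (wild type iodide replicate 2). Its means were 6.31 ± 2.25 with iodide and 5.27 ± 2.36 with chloride (SD, n = 4, exact two-sided permutation p = 0.543). In every group, replicate 2 had the higher value for both GAPDH and beta-actin. For GAPDH, replicates 1 and 2 had 1.40 and 3.13 in wild type iodide, and 2.27 and 2.49 in L629F iodide. The part of these ratios in the results was not tested beyond the fits with either as a covariate.

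With iodide, 2 HIF targets fell, the mitophagy receptor gene Bnip3 and the prolyl hydroxylase gene Egln3, and 1 glycolytic enzyme gene, Pgk1, rose. These came from the average change over both receptor lines and were 3 of the 27 tested members, against 1.6% of all 10048 genes tested (1.08% lower, 0.518% higher; limma, Benjamini-Hochberg adjusted p under 0.05). None of the 3 calls held in every alternative fit. Pgk1 was at 0.08 with quantile scaling (limma adjusted p = 0.562) and at -0.05 on a second probe set. Egln3 did not pass with arrays centred on the median of kept probe sets (0.0578), nor Bnip3 without the intensity trend (0.121). The median change over the 27 members was -0.12 log2, with 20 negative and 7 positive, and over all genes it was 0.01, with 52.2% positive. Changes are differences of log2(signal + 35.2), a scale that understates the change of dim genes. Both lines moved the same way for 21 of the 27 members, 17 negative and 4 positive (63.0% and 14.8%, against 28.0% and 32.5% of all genes).

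Bnip3 encodes an outer mitochondrial membrane protein that recruits the autophagy machinery. In wild type cells its signal was 2946 and 2851 in chloride and 2364 and 2174 in iodide. In L629F cells it was 4773 and 4275 in chloride and 2084 and 2814 in iodide. Every iodide array thus lay below both chloride arrays of its line, and the L629F chloride arrays were the highest of the 8. The average change was -0.62 ± 0.11 log2 (SE, n = 2 arrays per group, limma adjusted p = 0.0132), a ratio of 0.651. Within a line it was -0.35 ± 0.16 in wild type (adjusted p = 0.377) and -0.89 ± 0.16 in L629F cells (adjusted p = 0.0551), and the difference between the lines did not pass (-0.54 ± 0.22, adjusted p = 0.993). Leaving out wild type chloride replicate 1 (adjusted p = 0.099) or 2 (0.0755) ended the call, as did leaving out L629F chloride replicate 1 (0.0607) or L629F iodide replicate 1 (0.0626).

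Egln3, itself a HIF target, hydroxylates HIF alpha subunits. Its signal was 6425 and 6314 in wild type chloride cells and 4347 and 4605 in iodide. In L629F cells it was 4952 and 5608 in chloride and 4369 and 4238 in iodide. The 4 iodide arrays were all below the 4 chloride arrays, with no overlap across lines. The average change was -0.40 ± 0.09 log2 (SE, n = 2 per group, limma adjusted p = 0.0399), a ratio of 0.759. It passed in none of the 8 fits that each left out 1 array: the adjusted p was 0.197 and 0.157 without wild type chloride replicates 1 and 2, and leaving out a wild type iodide array gave 0.0538 (replicate 1) and 0.0524 (replicate 2). It was 0.0651 and 0.17 without L629F chloride replicates 1 and 2, and 0.118 without either L629F iodide array. With arrays centred on the median of kept or of all probe sets it was 0.0578 and 0.0519.

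The promoters of Bnip3 and Egln3 are shown because both genes fell with iodide and are classed as HIF targets. Each is 250 bases before to 50 bases after the gene start, 5′ to 3′ on the minus strand of GRCr8, from RefSeq. Capitals mark the core motif of HIF binding, searched as ACGTG and GCGTG on both strands.
Bnip3, chr1:203154913-203155212: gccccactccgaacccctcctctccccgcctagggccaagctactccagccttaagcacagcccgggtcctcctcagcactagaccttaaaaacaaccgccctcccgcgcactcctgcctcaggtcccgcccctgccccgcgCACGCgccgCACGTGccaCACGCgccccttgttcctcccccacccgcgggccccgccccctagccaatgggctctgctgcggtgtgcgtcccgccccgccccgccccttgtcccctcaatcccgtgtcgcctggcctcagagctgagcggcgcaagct
Egln3, chr6:77410966-77411265: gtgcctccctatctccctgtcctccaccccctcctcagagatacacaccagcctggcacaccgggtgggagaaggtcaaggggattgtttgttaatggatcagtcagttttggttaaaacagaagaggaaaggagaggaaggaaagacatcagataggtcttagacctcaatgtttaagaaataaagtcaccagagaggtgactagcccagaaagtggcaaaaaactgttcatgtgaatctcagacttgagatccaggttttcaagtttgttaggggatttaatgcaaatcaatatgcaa
The Bnip3 window held GCGTG on the reverse strand, printed as CACGC, with its leftmost base 108 and 90 bases before the start, and between them CACGTG, which reads as ACGTG on both strands. No match stood in the Egln3 window, which says only that these letters are not in it.

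Of the members, 27 had an entry in the promoter table, all but Slc2a3, Pgk1, Fbp2, Bnip3l and Ndrg1. ACGTG stood on either strand in 14 of them (51.9%), against 26.5% of 8425 tested genes with an entry and 19.7% of all 27457 promoters of this length. GCGTG stood in 13 (48.1%), against 50.8% and 31.1%. Either motif stood in 18 (66.7%), against 63.1% and 42.9%, with 6 matches in the lactate dehydrogenase gene Ldha. The palindrome CACGTG, which counts as ACGTG on both strands, was in 5 member windows (18.5%) against 9.86% of tested genes.

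**Figure D1:**
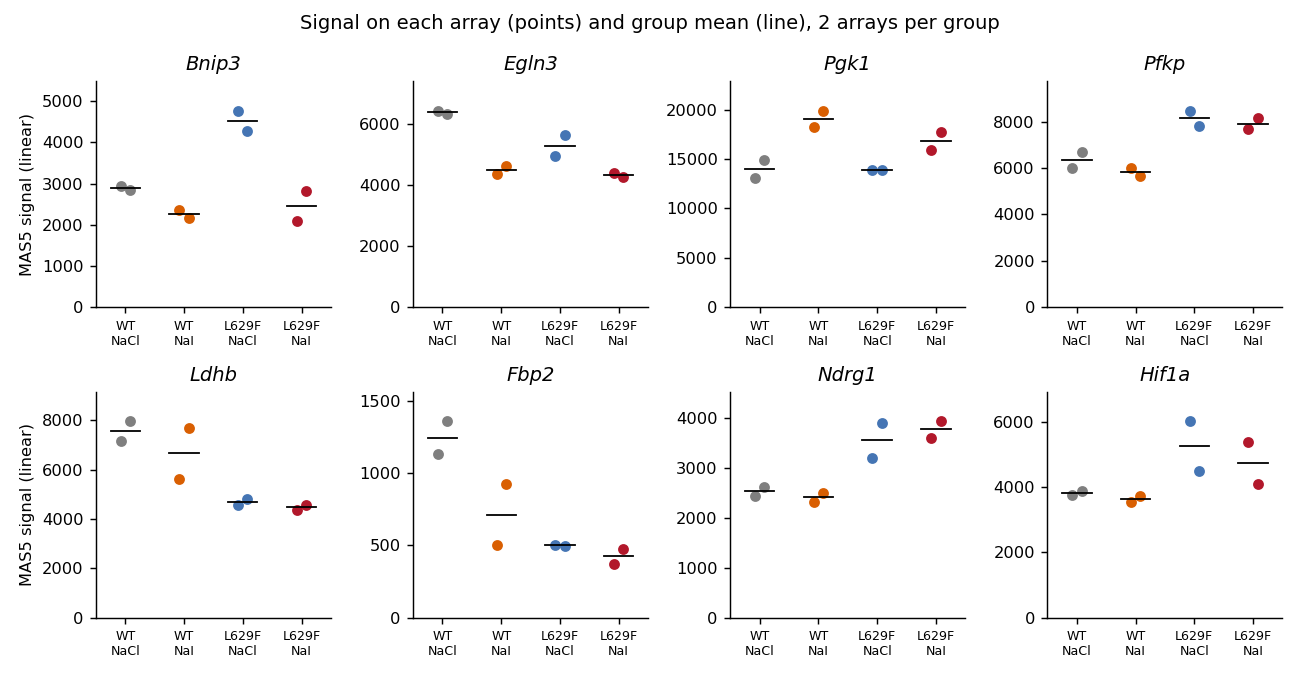
MAS5 signal (linear axis from 0) of 8 members on each of the 8 arrays; points are single arrays and lines are means of 2. Bnip3 and Egln3 sit lower and Pgk1 higher on the iodide arrays of each line, while Pfkp, Ndrg1, Ldhb and Hif1a separate the 4 L629F arrays from the 4 wild type arrays.

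The remaining HIF members gave smaller values with iodide. Egln1, the main oxygen sensor among the hydroxylases, was at -0.25 ± 0.12 (limma adjusted p = 0.348), and Hif1a at -0.11 ± 0.12 (adjusted p = 0.719). Bnip3l, the paralogue of Bnip3, was at -0.24 ± 0.11 (adjusted p = 0.295), with its second probe set at -0.16. In L629F cells its signal was 4792 and 3716 in chloride and 3276 and 2901 in iodide, without overlap; in wild type cells the groups overlapped. Vegfa, the angiogenic growth factor, was at 0.08 ± 0.10, and -0.08 on a dimmer probe set. Its groups overlapped in wild type cells and not in L629F cells, at 4040.4 and 4457 in chloride against 5058 and 5318 in iodide; the difference between lines did not pass (0.41 ± 0.20, adjusted p = 0.993). Ndrg1 and the carbonic anhydrase Car9 were at 0.01 and -0.10. Of the 8 tested members of the HIF system and its other targets, 2 fell and none rose (1.08% and 0.518% of all genes). Their median was -0.18.

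Pgk1, phosphoglycerate kinase, makes ATP from 1,3-bisphosphoglycerate. On its brightest probe set the signal was 13126 and 14937 in wild type chloride cells and 18294 and 19934 in iodide. In L629F cells it was 13861 and 13941 in chloride and 15927 and 17715 in iodide. All 4 iodide arrays were above all 4 chloride arrays. The average change was 0.36 ± 0.08 log2 (SE, n = 2 per group, limma adjusted p = 0.0471), a ratio of 1.28. A second probe set of Pgk1, with a mean signal of 7932, gave -0.05, and with the mean of the gene's probe sets the change was 0.15 (adjusted p = 0.42). The rise was 0.08 with quantile scaling (adjusted p = 0.562) and 0.29 with the GAPDH ratio as a covariate (adjusted p = 0.0936), and without 1 array it passed only when wild type iodide replicate 1 was left out (0.0308). Leaving out wild type chloride replicates 1 and 2 in turn gave an adjusted p of 0.242 and 0.112, and leaving out the other wild type iodide array gave 0.0838. It was 0.119 and 0.148 without the L629F chloride replicates 1 and 2, and 0.111 and 0.169 without the L629F iodide replicates 1 and 2.

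Besides Pgk1, 3 further members were higher on both iodide arrays of each line, and none of the 3 passed the test. Aldoa, the aldolase that splits fructose 1,6-bisphosphate, had signals of 14266 and 14597 in wild type chloride cells and 14702 and 16652 in iodide. In L629F cells these were 12564 and 12168 against 13384 and 15020.4. Ldha, the lactate dehydrogenase subunit that favours lactate formation, gave 13086 and 13733 (wild type) and 13371 and 13074 (L629F) in chloride. In iodide it gave 14355 and 15509, and 14183 and 15914. Pgam1, phosphoglycerate mutase, gave 8522 and 10404 (wild type) and 10903 and 10598 (L629F) in chloride, and 10959.9, 13440 (wild type), 10989 and 12014 (L629F) in iodide. The average changes were 0.16 ± 0.08 for Aldoa, 0.17 ± 0.08 for Ldha and 0.23 ± 0.10 for Pgam1 (limma adjusted p = 0.405, 0.342 and 0.269).

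Those 4 were also the only tested members with a mean signal of 10000 or more. Of the 166 tested genes that bright, 93.4% had a positive iodide change, with a median of 0.27, and in 63.3% the iodide arrays of each line lay above its chloride arrays, against 8.19% of all genes. With quantile scaling Aldoa and Ldha turned to -0.08 and -0.06, Pgam1 stood at 0.07, and the median of the 4 was 0.00. Arrays centred on either median left all 4 positive. Gapdh, on its 3′ control probe set, had signals of 16151 and 18157 in wild type chloride, 16314 and 20942 in iodide, 16120.0 and 15641 in L629F chloride and 17585 and 18557 in iodide. Its change was 0.15 there, 0.05 on the middle and -0.34 on the 5′ control probe set.

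**Figure D2:**
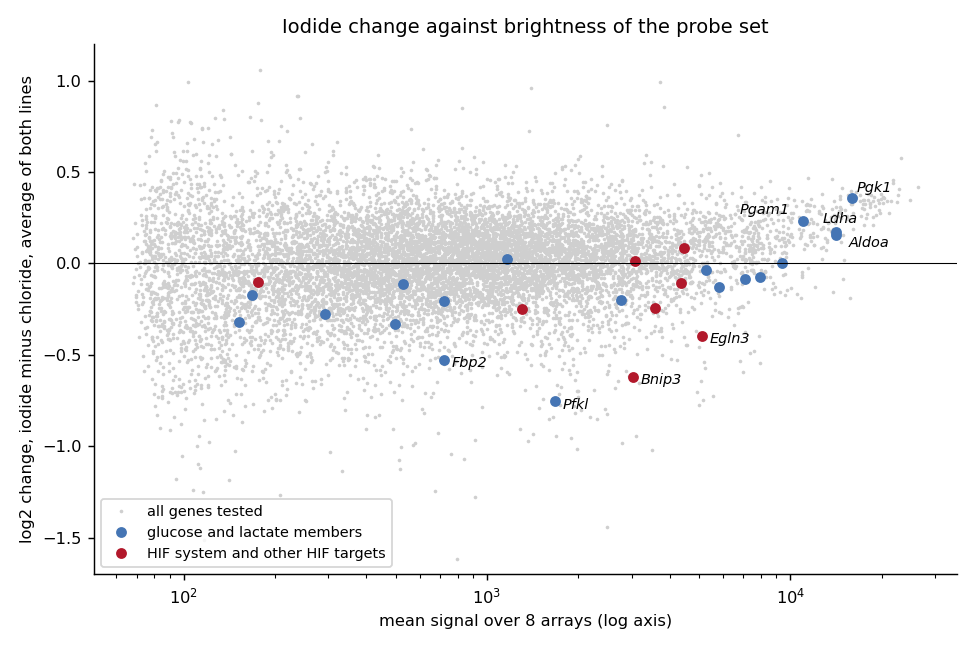
Average log2 change with iodide (vertical axis) against the mean signal over 8 arrays (horizontal, log axis) for 10048 genes, with the 27 tested members in colour. Grey points above a signal of 10000 lie mostly above 0, where Pgk1, Pgam1, Ldha and Aldoa also lie; Bnip3 and Egln3 lie below 0 at intermediate signal.

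The entry and the committed steps of glycolysis had no gene past the threshold with iodide. Slc2a1, the main glucose transporter of cultured cells, had signals of 2873 and 3080.5 in wild type chloride and 2331 and 2807 in iodide, and of 3149 and 2713 against 2647 and 2476 in L629F cells. It was lower on every iodide array within its line (-0.20 ± 0.10, limma adjusted p = 0.388). Slc2a3, a second transporter, was at -0.17, Hk1 and Hk2, the hexokinases, at 0.02 and -0.32, and Gpi, the isomerase, at -0.07. Pfkl, the liver-type phosphofructokinase, had the largest negative value of any member, -0.76 ± 0.22 (adjusted p = 0.112). Its signals were 1912 and 2505 against 744 and 1427 in wild type cells and 1362 and 2628 against 1132 and 1667 in L629F cells, so the L629F groups overlapped. With the GAPDH ratio as a covariate Pfkl was at -1.24 (limma adjusted p = 0.00112), and with the beta-actin ratio at -0.96 (adjusted p = 0.00762). These covariate fits also called more of all genes (2.46% and 2.89%, against 1.6%). Pfkl passed in 3 of the 14 alternatives that kept all arrays, and without 1 array its change was -0.99 to -0.52. The paralogues Pfkm and Pfkp were at -0.21 and -0.08, Tpi1 at -0.04 and Eno1 at 0.00. Of 11 tested glycolytic enzymes 1 rose and none fell (0.518% and 1.08% of all genes), and the median was -0.04.

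Members that set the direction of flux were all negative. Pfkfb3, whose product fructose 2,6-bisphosphate activates phosphofructokinase, gave 584 and 607 in wild type chloride, 469.97 and 473 in iodide, 481 and 555 in L629F chloride and 379 and 419 in iodide (-0.33 ± 0.13, limma adjusted p = 0.234). Fbp2, fructose-1,6-bisphosphatase of muscle type, which runs the reverse reaction, was at -0.53 ± 0.17 (adjusted p = 0.154). Pdk1, the kinase that shuts off pyruvate dehydrogenase, was at -0.28 ± 0.17 (adjusted p = 0.496 over genes). Its dimmer probe set was at -0.53. With p adjusted over every kept probe set, the dimmer one had 0.159 and the brighter one 0.581. Ldhb, the subunit that favours pyruvate formation, and the monocarboxylate transporter Slc16a1 were at -0.13 and -0.12. Groups did not overlap in either line, in the same direction, for 9 of the 27 members, 4 higher and 5 lower, against 14.3% of all genes (8.19% higher and 6.07% lower). The 5 lower were Slc2a1, Pfkfb3, Fbp2, Egln3 and Bnip3.

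**Figure D3:**
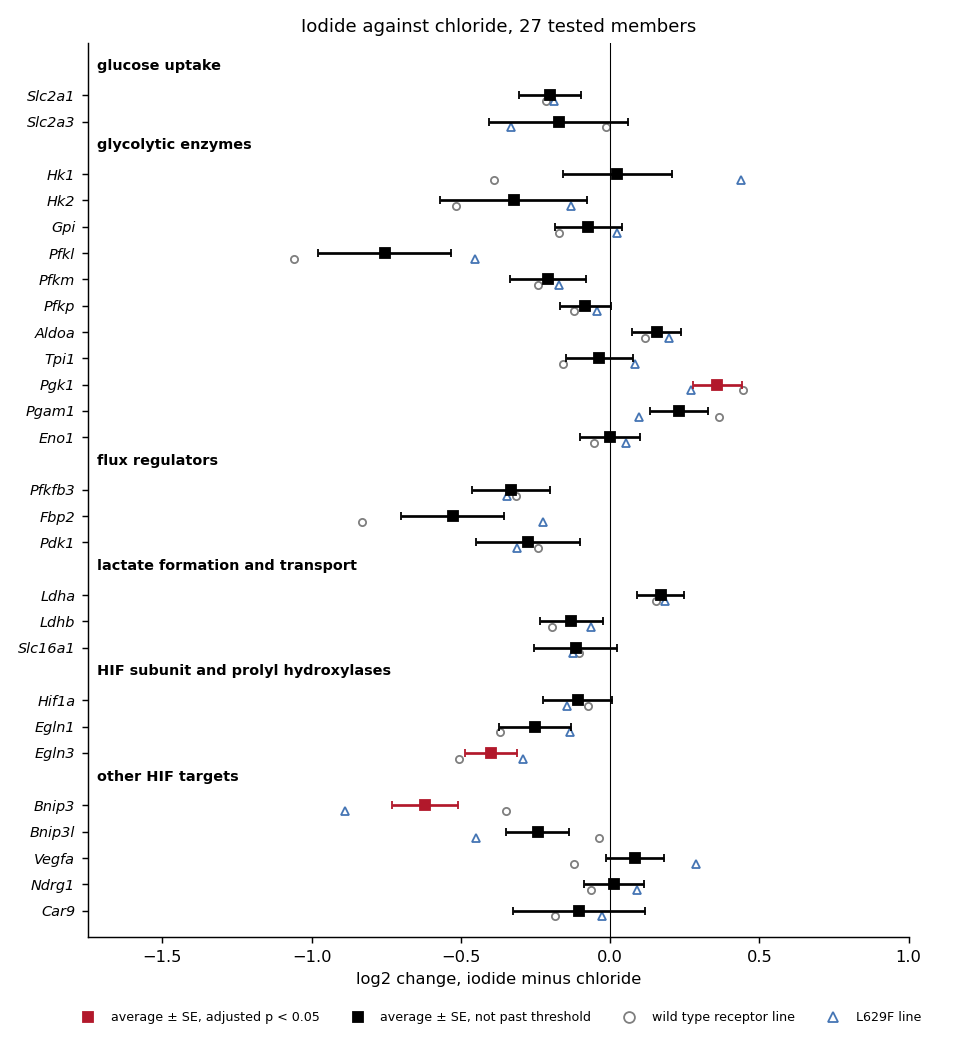
Log2 change with iodide for the 27 tested members, grouped by role. Squares are averages over both lines with their SE (red where the adjusted p is under 0.05), circles the wild type and triangles the L629F line; Bnip3 and Egln3 are red below 0, Pgk1 red above 0, and 20 of 27 squares lie below 0.

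Within a single line no member passed with iodide by limma, in wild type cells (0.458% of all genes passed, 0.0796% higher and 0.378% lower) or in L629F cells (0.0896%, 0.00995% higher and 0.0796% lower). At an unadjusted p under 0.05 there were 7 and 4 members, against 12.5% and 8.18% of all genes. The 2 arrays of each salt did not overlap for 15 members in wild type cells, 4 higher and 11 lower in iodide, against 43.2% of all genes (23.7% higher and 19.5% lower). In L629F cells this held for 13 members, 5 higher and 8 lower, against 38.7% (20.2% higher and 18.5% lower). The interaction of receptor and salt passed for no member and for 0% of all genes, with 2 members, Bnip3 and Hk1, at an unadjusted p under 0.05, against 4.16% of all genes. Hk1 gave 1256 and 1482 against 785 and 1355 in wild type cells and 696 and 1196 against 1183 and 1323 in L629F cells, with overlapping groups in each line. No second tool was run.

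Further hypoxia-inducible genes outside the members included 2 that fell with iodide, Cxcr4 and Ddit4. Of a list of 31, 27 were tested, 21 had a negative iodide change and 6 a positive one, and the median was -0.27. Over all genes 52.2% had a positive change. Both lines were negative for 19 of the 27 (70.4%) and positive for 2 (7.41%), against 28.0% and 32.5% of all genes. Cxcr4, a chemokine receptor, and Ddit4, an inhibitor of mTORC1 signalling, fell, and none rose, which was 2 of 27 against 1.6% of all genes. The list was chosen with earlier results of these data known, so its counts here and in the next paragraph are description only. Cxcr4 gave 661 and 594 in wild type chloride, 451 and 296 in iodide, 1014 and 932 in L629F chloride and 521 and 474 in iodide. Both iodide arrays of each line lay below its chloride arrays. The change was -0.82 ± 0.15 (limma adjusted p = 0.0132), and -0.55 with the mean of its probe sets (adjusted p = 0.0682). Ddit4 gave 1381 and 1250.5, 852 and 1099.8, 2534 and 2504, and 1395 and 881 in the same order. The change was -0.79 ± 0.14 (adjusted p = 0.0143), and as with Bnip3 the L629F chloride arrays were the highest. Without wild type chloride replicate 1 or 2 or L629F chloride replicate 1 or 2, neither passed (adjusted p = 0.102, 0.0604, 0.0595 and 0.0554 for Cxcr4 and 0.107, 0.0714, 0.056 and 0.0619 for Ddit4).

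In 9 of these 27 genes the iodide arrays of each line lay below its chloride arrays, and in none above, against 6.07% lower and 8.19% higher over all genes. They were Ankrd37, Cxcr4, Ddit4, Bhlhe40, Wsb1, Hmox1, Gbe1, Stc2 and Mxi1. Wsb1, part of a ubiquitin ligase, gave -0.49 ± 0.12 (limma adjusted p = 0.0559), and the transcriptional repressor Bhlhe40 gave -0.78 (adjusted p = 0.149). The largest positive value was that of Angptl4, an inhibitor of lipoprotein lipase, at 0.30 (adjusted p = 0.357). The count of negative genes was 19 to 23 in fits that each left out 1 array (median -0.30 to -0.21) 23 with quantile scaling and 20 with either centring. None of these 27 had a mean signal of 10000 or more.

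**Figure D4:**
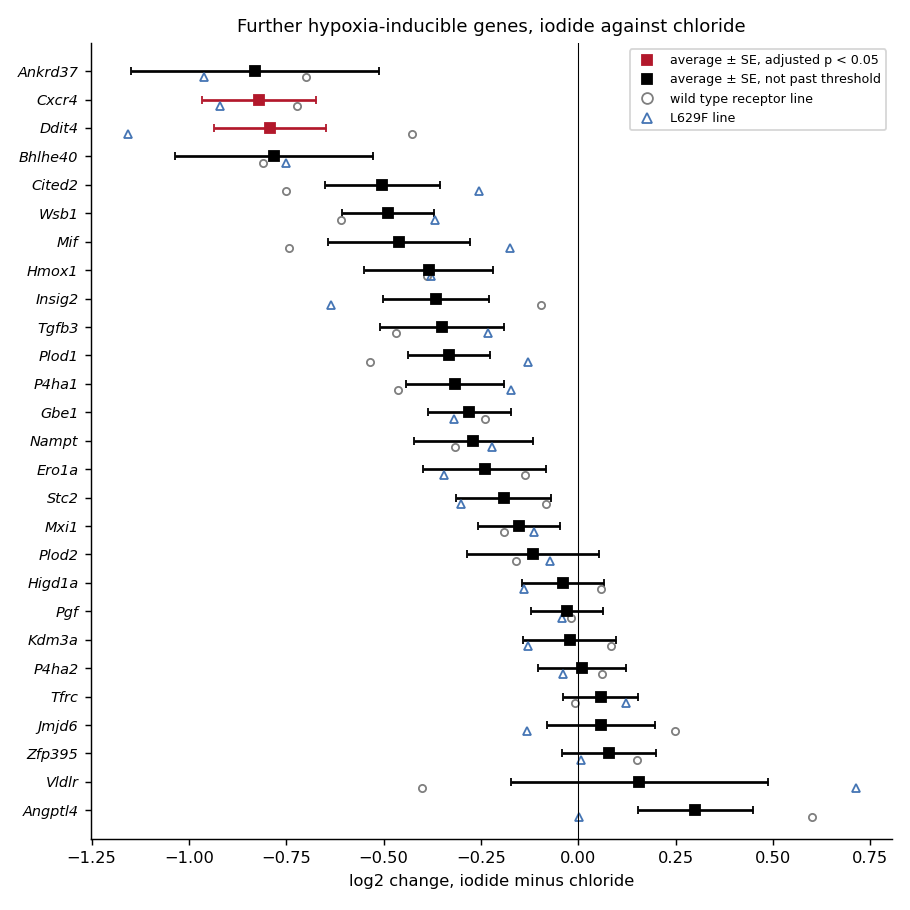
Log2 change with iodide for 27 further hypoxia-inducible genes, ordered by the average over both lines (squares with SE, red where the adjusted p is under 0.05); circles are the wild type and triangles the L629F line. Cxcr4 and Ddit4 are red, and 21 of 27 squares lie below 0.

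Between the receptor lines, averaged over both salts, Pfkp and Ndrg1 were higher and Ldhb and Fbp2 lower in L629F cells. These were 4 of 27 tested members, against 3.13% of all genes (2.04% higher and 1.09% lower). These comparisons use the same 8 arrays as those of iodide. The median over the members was -0.09, with 17 negative and 10 positive, and over all genes it was 0.00. Centring the arrays on the median of all probe sets moved the median of all genes to -0.17, and with it 8 members passed, Ndrg1 higher and Aldoa, Tpi1, Pgk1, Eno1, Fbp2, Ldhb and Egln3 lower, against 13.6% of all genes (1.42% higher and 12.2% lower). The median signal of all probe sets was 138 to 148 on L629F and 118 to 127 on wild type arrays, without overlap, and its part in these differences was not tested further.

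Ldhb gave 7137 and 7957 in wild type chloride, 5619 and 7695 in iodide, 4555 and 4798 in L629F chloride and 4375 and 4563 in iodide. All 4 L629F arrays lay below all 4 wild type arrays. The difference was -0.62 ± 0.11 log2 (SE, n = 2 per group, limma adjusted p = 0.00749), a ratio of 0.651, and -0.79 when centred on all probe sets. Ldha, the partner subunit, differed by 0.00 ± 0.08 (adjusted p = 0.979). Leaving out wild type chloride replicate 2 ended the Ldhb call (0.0622).

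Fbp2 gave 1130.4 and 1357 in wild type chloride, 501 and 922 in iodide, 504 and 496 in L629F chloride and 374 and 477 in iodide. Wild type iodide replicate 1 lay within the L629F range, so the lines overlapped. The difference was -0.95 ± 0.17 (limma adjusted p = 0.0107), a ratio of 0.518, and did not pass when wild type chloride replicate 2 was left out (0.0835). In chloride alone Fbp2 was the only member past the threshold (-1.25 ± 0.24, adjusted p = 0.0464, with 0.478% of all genes passing). It did not pass when wild type chloride replicate 1 (0.258) or 2 (0.376) was left out, nor without L629F chloride replicate 1 (0.26) or 2 (0.181), or L629F iodide replicate 1 (0.0546) or 2 (0.0565). In iodide no member passed (0.488% of all genes did, and by limma 6 members had an unadjusted p under 0.05, against 12.1% of all genes).

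Ndrg1, a stress-responsive gene induced by HIF, gave 2443 and 2613 in wild type chloride, 2324 and 2506 in iodide, 3206 and 3904 in L629F chloride and 3606 and 3935 in iodide. The lines did not overlap. The difference was 0.56 ± 0.10 (limma adjusted p = 0.01), a ratio of 1.47. A dimmer probe set gave 0.11, and with the mean of both the difference was 0.33 (adjusted p = 0.135). The call was also lost without wild type chloride replicate 1 (0.0684) or L629F chloride replicate 2 (0.0515).

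Pfkp, the platelet-type phosphofructokinase, gave 5999 and 6709 in wild type chloride, 5988 and 5668 in iodide, 8485 and 7834 in L629F chloride and 7679 and 8146 in iodide. The lines did not overlap. The difference was 0.40 ± 0.09 (limma adjusted p = 0.0264), a ratio of 1.32, and 0.23 when centred on all probe sets (adjusted p = 0.0922). It passed without either wild type iodide array and not without wild type chloride replicate 1 (0.134) or 2 (0.0777), L629F chloride replicate 1 (0.107) or 2 (0.0585), or L629F iodide replicate 1 (0.0767) or 2 (0.0838). The other isoforms, Pfkl and Pfkm, differed by 0.10 and -0.14 without passing (adjusted p = 0.846 and 0.56).

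Hif1a gave 3755 and 3881 in wild type chloride, 3527 and 3732 in iodide, 6015 and 4489 in L629F chloride and 5393 and 4088 in iodide. The lines did not overlap, but the 2 L629F arrays of each salt lay far apart. The difference of 0.41 ± 0.12 did not pass (limma adjusted p = 0.0788). With the GAPDH ratio as a covariate it was 0.43 (adjusted p = 0.0447), in a fit that called 7.01% of all genes, against 3.13%. Hif1a passed in 2 of the 14 alternatives that kept all arrays, and without 1 array the difference was 0.30 to 0.51. Bnip3 was at 0.36 ± 0.11 over both salts (adjusted p = 0.0945), at 0.63 ± 0.16 in chloride (0.103) and at 0.09 ± 0.16 in iodide (0.855). Tpi1, triosephosphate isomerase, was at -0.39 ± 0.11 (adjusted p = 0.0832) and Eno1, enolase, at -0.25 ± 0.10 (adjusted p = 0.189). Of 11 tested glycolytic enzymes 1 was higher and none lower (2.04% and 1.09% of all genes). A negative difference was found for 8 and a positive one for 3, against 49.4% positive over all genes. The lines did not overlap for 4 of the 27 members, Pfkp, Hif1a and Ndrg1 higher and Ldhb lower, against 10.3% of all genes (5.64% higher, 4.65% lower).

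**Figure D5:**
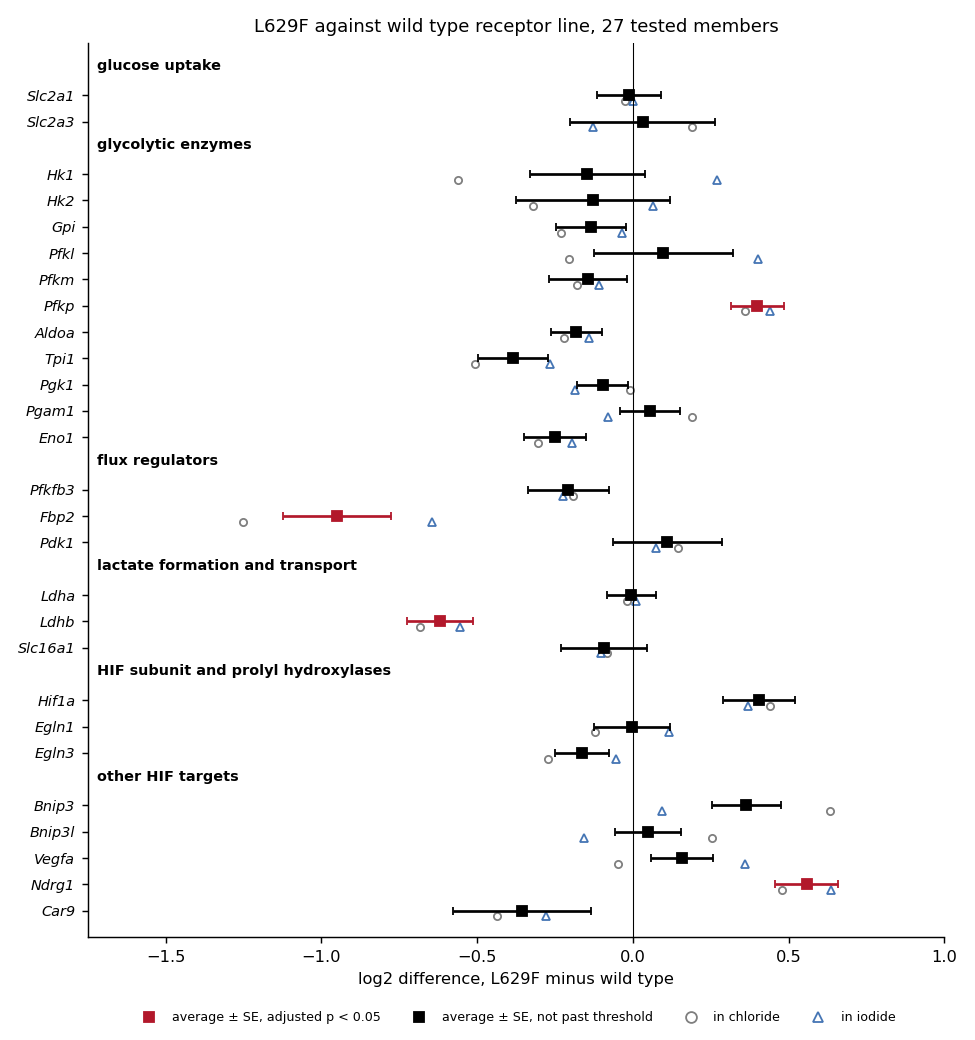
Log2 difference between the L629F and the wild type line for the 27 tested members, grouped by role. Squares are averages over both salts with their SE (red where the adjusted p is under 0.05), circles the difference in chloride and triangles in iodide; Pfkp and Ndrg1 are red above 0 and Ldhb and Fbp2 red below 0.

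Members under the brightness filter, set at a geometric mean signal of 65.3, were among the dimmest 40% of probe sets. No detection calls were at hand, so whether they were detected is not known. Adm, the vasodilator peptide adrenomedullin, gave 67.1 and 30.8 in wild type chloride, 80.3 and 84.6 in iodide, 34.5 and 39.96 in L629F chloride and 72.5 and 64.1 in iodide. It was higher on the iodide arrays of each line. Aldoc ranged from 6.81 to 112 and Slc16a3, the lactate exporter of glycolytic cells, from 6.99 to 126, each with wide spread within groups. Car9, Slc2a3 and Hk2 were dim but tested, with signals from 106 to 246, from 110 to 261 and from 84.5 to 218.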

How the data were processed

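The deposited tables held MAS5 signal intensities (linear scale), per the submitters' processing notes; the MAS5 version and scaling target were not given in the sources used here. The trimmed mean over 31099 probe sets, with 2% taken off at either end, was 500.2 on every array. The arrays thus shared this mean, while their medians and 25th percentiles differed between the lines, as given above. Symbols came from the platform annotation, updated by gene ID. The 57 control probe sets stayed out, as did the dimmest 40% by mean log2 value, and the brightest probe set stood for each of 10048 genes. Values were log2(signal + 35.2), the 25th percentile of all signals, uncentred. limma 3.58.1 in R 4.3.3 fitted a mean per group (lmFit, then eBayes with intensity trend; 4 residual and 9.37 prior degrees of freedom) for 7 contrasts, with two-sided tests and p adjusted by Benjamini-Hochberg across the genes at a threshold of 0.05. The fit was also run on simulated data with independent noise per gene and no array effects. That run cannot show how such effects move the calls. The number of arrays limits the precision (median SE 0.20 log2 within a line, 0.14 for an average). Members and lists were chosen with earlier results of these data known.

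Genes described in full were those past the threshold and the 6 others of smallest p in either average; of other lists, up to 3 genes per average by smallest p, while other genes were named after their values were seen. Same-numbered replicates were checked for pairing: the correlations of their deviations from group means were 0.0482 to 0.228, not all above 0.1, so no pairing was used. Alternatives changed the pseudocount, filter, scaling, probe set choice, variance moderation, arrays in the fit, replicate and RNA-quality terms and threshold, and left out each array. Figures used matplotlib 3.10.9 in Python 3.11.15. Promoters and their coordinates were taken from a RefSeq table of GRCr8.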

Additional observations from a re-analysis of the deposited data

How the results depend on the processing

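None of the members past the threshold in an average changed sign in that average under any alternative run. Members that did not pass did: in the iodide average Aldoa, Ldha and Ndrg1 with quantile scaling, Eno1 with either centring, and up to 5 with a ratio as covariate; in the receptor average 6 when centred on all probe sets (Bnip3l, Pdk1, Pfkl, Pgam1, Slc2a3 and Vegfa), 5 with quantile scaling and 2 each with the mean of probe sets or a ratio as covariate. For iodide averaged over both lines, 3 members passed; 1 did without a dim filter or with p adjusted over every kept probe set (an alternative chosen after seeing the data), 0 without the intensity trend, and 5 with the beta-actin ratio as covariate. In wild type cells, where 0 passed, 4 did with the GAPDH and 2 with the beta-actin ratio. In L629F cells, where 0 passed, 1 (Bnip3) did with pseudocount 100, the lowest 60% left out, quantile scaling, either ratio or a threshold of 0.1. For the receptor average, 4 passed; 8 did when centred on all probe sets, 7 at a threshold of 0.1 and 0 without the intensity trend. For receptor in chloride, 1 passed; 0 did with pseudocount 1, no filter, the mean of probe sets, no trend or p over every probe set, 2 with quantile scaling, centring on all probe sets, the beta-actin ratio or a threshold of 0.1, 3 with only the groups compared and 4 with the GAPDH ratio. For receptor in iodide, 0 passed; 1 did when centred on all probe sets or at 0.1, and 2 with either ratio. Without 1 array the counts were 0 to 2 (iodide average), 0 (iodide within each line, interaction and receptor in iodide), 1 to 4 (receptor average) and 0 to 2 (receptor in chloride). Of all genes, the beta-actin term called 2.89% for the iodide average and 1.02% for iodide in wild type cells. For receptor it called 1.25% in chloride and 1.05% in iodide. The GAPDH term called 1.93% for iodide in wild type cells, 2.56% for receptor in chloride and 1.32% for receptor in iodide. Centring on all probe sets called 13.6% for the receptor average, against 3.13% without centring. It called 0.876% for receptor in chloride and 0.567% for receptor in iodide, against 0.478% and 0.488%. For receptor in chloride, quantile scaling called 0.577% and the fit of only the groups compared 0.796%. The listed runs in which 0 members passed there called 0.0896% to 0.328%. Without the intensity trend 0.179% passed for the iodide average and 1.61% for the receptor average. Shares of all genes at a threshold of 0.1 were not counted. The cause of these shifts in counts was not tested. Keeping the rat control probe sets, chosen after seeing the data, moved no count and gave Gapdh 0.15 with iodide (adjusted p = 0.491).

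With the replicate number as a block, 5 members passed for the iodide average (Pfkl and Fbp2 besides Bnip3, Egln3 and Pgk1), 4 in wild type, 1 in L629F cells, 7 for the receptor average, 5 in chloride and 2 in iodide. Of all genes, 5.18%, 2.26%, 0.527%, 7.73%, 2.42% and 1.68% then passed in these comparisons, in the same order. The numbers are not known to pair the samples: all 6 correlations of deviations were positive, from 0.0482 to 0.228.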

Other observations

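Over 6 lists of neighbouring pathways, 3 of 59 tested genes passed between the lines (5.08%, against 3.13% of all genes) and 0 with iodide (against 1.6%). Pck2, the mitochondrial enzyme that makes phosphoenolpyruvate, was higher in L629F cells (0.87 ± 0.13 log2, limma adjusted p = 0.00318), at 703 ± 65.8 and 563 ± 29.5 in wild type chloride and iodide and at 1216 ± 224 and 1147 ± 107 in L629F cells (SD, n = 2 each). It passed in all 8 fits without 1 array and was the 1 of 14 tested glycolytic and gluconeogenic isoforms past the threshold. Ugp2, which makes UDP-glucose for glycogen, was lower (-0.38 ± 0.09, adjusted p = 0.0476), 1 of 9 glycogen genes, with a signal of 3047 ± 73.6 in wild type iodide and 2160 ± 69.7 in wild type chloride cells. In L629F cells the Ugp2 signal was 1965 ± 95.6 in chloride and 1965 ± 50.4 in iodide, so the lines differed mostly in iodide. Myc, a transcription factor with many glycolytic targets, was lower (-0.49 ± 0.12, adjusted p = 0.0492), 1 of 9 regulators of glucose sensing. Neither Ugp2 nor Myc held in most fits without 1 array (0 and 1 of 8).

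With iodide none of these lists had a gene past the threshold by limma. Pgd, of the pentose phosphate pathway, was at -0.39 ± 0.11 (adjusted p = 0.104), Myc at 0.38 ± 0.12 (adjusted p = 0.156) and Txnip, a glucose-induced inhibitor of glucose uptake, at -0.28 ± 0.11 (adjusted p = 0.22). The 11 tested genes of pyruvate entry and oxidation had a median of 0.00 and the 9 of the HIF system a median of -0.01, with the elongin gene Elob at 0.22 ± 0.08 (adjusted p = 0.19).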
